A study of Homo sapiens with 6 samples.

Results

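The HSP70 family was followed through 10 genes of the count tables: HSPA1A, HSPA1B, HSPA1L, HSPA2, HSPA4, HSPA4L, HSPA6, HSPA8, HSPA9 and HSPA14. They were chosen by name, with earlier results of these data known. All 10 were found among the 23686 genes that each table lists. HSPA1A and HSPA1B are near-identical copies, so their summed reads are given as well. The 10 genes entered 1 comparison of 3 libraries from co-cultured cells with 3 control libraries.

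HEK293, an established human embryonic kidney line, was the only cell type in the study. All 6 libraries came from GFP-positive HEK293 cells that were grown in high-glucose DMEM with serum and sorted by flow cytometry before RNA extraction. In the co-culture group these cells had spent 10 h beside HEK293 cells that carry DAAO (D-amino acid oxidase) and were supplied with 25 uM D-alanine, from which the enzyme makes hydrogen peroxide, a reactive oxygen species (ROS). The control group was labelled as wild-type controls that carry GFP and were sorted in the same way, and the comparison asked how gene expression differed in cells with ROS-producing neighbours. The treatment text is the same for all 6 samples, so whether the controls had D-alanine or partner cells of another kind is not given in the sources used here, nor is whether the GFP line is 1 clone or the replicates are separate cultures. All p-values therefore measure only the spread between these samples, which may be technical.

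HSP70 proteins are ATP-driven chaperones that bind short hydrophobic stretches of unfolded proteins, release them after nucleotide exchange and so help folding, transport and degradation. Cells keep a constitutive form in the cytosol, HSPA8 (HSC70), and another in mitochondria, HSPA9 (mortalin). HSPA1A, HSPA1B and HSPA6 are the classical heat-inducible genes, switched on by heat shock factor 1 (HSF1), which binds alternating GAA and TTC units called heat shock elements. Oxidative damage to proteins is a known trigger of that response.

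The promoters of the inducible and constitutive cytosolic genes are shown here because HSF1 acts through them. The 4 sequences are the 250 bases before the transcription start from RefSeq (GRCh38.p14), written 5′ to 3′ on the gene's own strand. Capitals mark each match to GAANNTTC or TTCNNGAA, the pairs of facing units within a heat shock element. HSPA1A lies on the plus strand at chr6:31815293-31815542, HSPA1B on the plus strand at chr6:31827488-31827737, HSPA6 on the plus strand at chr1:161524290-161524539 and HSPA8 on the minus strand at chr11:123062137-123062386.
HSPA1A: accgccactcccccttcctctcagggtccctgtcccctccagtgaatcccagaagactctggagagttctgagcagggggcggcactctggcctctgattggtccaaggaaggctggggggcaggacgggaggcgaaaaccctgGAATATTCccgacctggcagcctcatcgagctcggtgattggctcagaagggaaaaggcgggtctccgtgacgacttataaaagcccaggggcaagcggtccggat
HSPA1B: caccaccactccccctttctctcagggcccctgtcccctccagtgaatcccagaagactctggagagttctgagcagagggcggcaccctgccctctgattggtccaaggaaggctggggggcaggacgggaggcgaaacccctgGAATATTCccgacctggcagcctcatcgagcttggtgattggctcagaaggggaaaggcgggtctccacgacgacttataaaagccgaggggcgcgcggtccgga
HSPA6: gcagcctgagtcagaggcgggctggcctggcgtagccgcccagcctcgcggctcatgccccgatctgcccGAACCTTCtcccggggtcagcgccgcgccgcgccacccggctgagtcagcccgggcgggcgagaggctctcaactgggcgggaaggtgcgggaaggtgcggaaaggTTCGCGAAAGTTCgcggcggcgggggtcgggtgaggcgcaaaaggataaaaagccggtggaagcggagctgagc
HSPA8: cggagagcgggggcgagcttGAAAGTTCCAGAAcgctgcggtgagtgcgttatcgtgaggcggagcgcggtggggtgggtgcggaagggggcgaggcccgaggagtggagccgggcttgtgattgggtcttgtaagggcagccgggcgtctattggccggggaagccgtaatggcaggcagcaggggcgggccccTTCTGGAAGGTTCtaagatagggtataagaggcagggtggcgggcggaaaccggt

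The HSPA1A and HSPA1B promoters were alike over 93.6% of aligned positions (235 of 251, with 14 mismatches and 2 gaps), against 48.9% for HSPA1A and HSPA6 and 49.3% for HSPA1A and HSPA8. Both copies held 1 match to GAANNTTC, 106 bases before the start in HSPA1A and 105 in HSPA1B. The HSPA6 stretch held GAANNTTC at 180 and 69 bases before the start and TTCNNGAA at 74, and the matches at 74 and 69 overlap in a run of 3 alternating units. HSPA8 held such a run at 230 and again at 55 bases before the start. These motifs were searched on both strands of windows from 250 bases before to 50 after the start, for which 9 of the 10 genes had an entry. Over the 35116 windows in the RefSeq table, GAANNTTC was found in 6.77%, TTCNNGAA in 7.74% and a run of at least 3 alternating units in 0.49%. Of the other members, HSPA4L (1 of its 3 windows) and HSPA9 held TTCNNGAA, and HSPA2 and HSPA4 held neither pair. HSPA1L starts 260 bases from HSPA1A on the opposite strand, so its single GAANNTTC match, 161 bases before its start, is the same DNA as the match of HSPA1A. A match describes the letters and does not show binding.

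Transcript sequence bears on how the counts of these genes can be read, because the deposited tables set reads that map to several places apart and count them for no gene. The read length is not given in the sources used here, so stretches of 75 bases were taken. In GENCODE 29, 71.2% of all such stretches of the HSPA1A transcript also occur in HSPA1B, and 73.2% of those of HSPA1B occur in HSPA1A or another transcript. For HSPA6, 35% also occur in HSPA7, a neighbouring copy. For the other 7 members the share found in any other transcript was at most 1.76%, as seen in HSPA8. The shares depend on the length taken: with 50 bases they were 72.6% for HSPA1A, 45.5% for HSPA6 and 15.4% for HSPA8, and with 100 bases 69.9%, 27.6% and 0%. Reads from shared stretches are missing from the counts of HSPA1A, HSPA1B and HSPA6, and the sum of HSPA1A and HSPA1B does not recover them.

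Libraries held 19091085 to 36250314 reads assigned to genes on the reverse strand, where the reads of this stranded kit lie, so 1 read was worth 0.0276 to 0.0524 CPM (reads per 1000000 of a library's total) before scaling. All levels given here are CPM after edgeR's TMM scaling. In 2 of the co-culture libraries, 2 and 3, few reads lay on the opposite strand (median per gene 0.124% and 0.211%), against 1.57% to 1.76% in the 3 controls and co-culture 1. Co-culture 1 therefore gives the only value in the class that holds the controls, and the other class holds co-culture libraries alone. With this class as a term, the group effect is thus that of co-culture 1 alone against the 3 controls. Multimapping reads made up 8.42% of all reads in co-culture 1 and 6.48% to 7.03% elsewhere. Of 10 HEK293 marker genes, 9 had over 3 reads in every library, with a summed level of 2426 to 2635 CPM in co-culture and 2002 to 2083 CPM in the controls, and 2 (VIM and INA) were called higher. Of 12 markers of other cell types, 2 did (CD68 and COL1A1), HBB had 0 reads throughout, and their sum was 51.2 to 55.5 against 39.4 to 51.8 CPM, with 0 of the 2 tested called. The part of these levels in the results was not tested. The partner cells are HEK293 too, so no marker tells them from the sorted cells.

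All 10 HSP70 genes had enough reads to be tested, and 3 of them passed an adjusted p of 0.05 in edgeR's quasi-likelihood test over 14582 genes, where 4.83% of all genes passed. HSPA1A and HSPA1B rose in the co-cultured cells, where 2.66% of all tested genes were called higher, and HSPA6 fell, where 2.17% were called lower. The other 7 did not pass. In bulk RNA such as this, more cells that express a gene and more RNA per cell cannot be told apart. In 4 members (HSPA1A, HSPA1B, HSPA1L and HSPA4L) every co-culture library lay above every control, as in 14.3% of all tested genes, and in 3 (HSPA2, HSPA6 and HSPA8) every co-culture library lay below, as in 15% of them. Groups were thus separate in 7 of 10 members and in 29.3% of all tested genes. The members were chosen with earlier results of these data known, so setting them beside all genes is no test of the family. The median log2 fold change was 0.01 over the 10 members and -0.00 over all tested genes, while the median size without sign was 0.28 for the members and 0.13 for all.

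**Figure D1:**
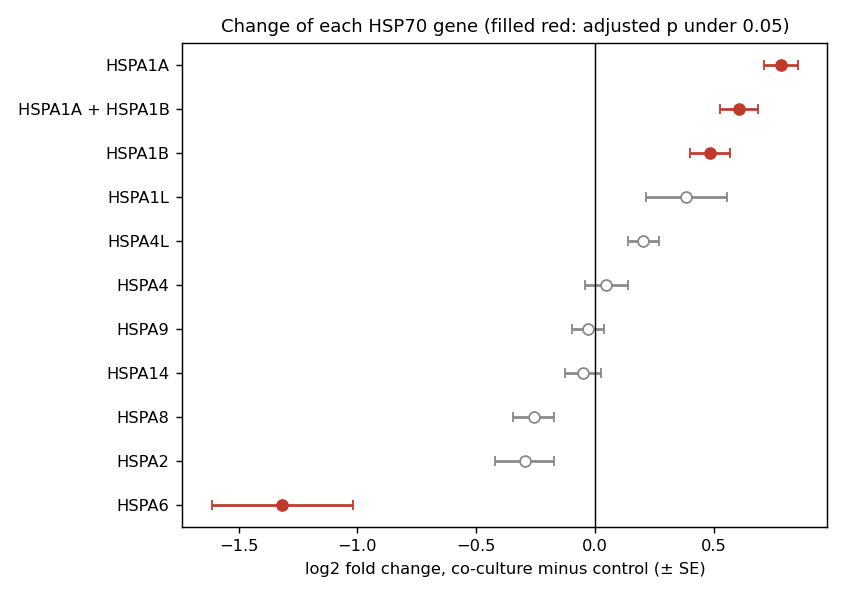
The log2 fold change (co-culture minus control, x axis) of each HSP70 gene and of the summed reads of HSPA1A and HSPA1B, with the standard error as bars. Filled red points passed an adjusted p of 0.05: HSPA1A at 0.78, the sum at 0.61, HSPA1B at 0.48 and HSPA6 at -1.32.

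HSPA1A encodes the main stress-inducible cytosolic HSP70 and is a single-exon gene. Its level was 265, 281 and 307 CPM in co-culture libraries 1, 2 and 3 and 154, 171 and 170 CPM in controls 1, 2 and 3. The lowest co-culture library, library 1, lay far above the highest control, and the groups did not overlap. The means were 284 ± 21.4 against 165 ± 9.40 CPM (SD, n = 3). HSPA1A thus rose 1.72-fold, by 0.78 on the log2 scale (SE 0.07, edgeR's quasi-likelihood adjusted p = 0.000581). These levels rest on 3053 to 10999 reverse-strand reads a library. Of the reads on either strand, pooled over the libraries, 0.329% lay on the opposite strand (0.101% to 0.638% by library). With the strand class as a term in the fit, which sets co-culture 1 alone against the controls, the log2 fold change was 0.68. HSPA1A passed in all 15 alternative settings run.

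HSPA1B, the second inducible copy, encodes the same kind of protein. It stood at 358, 372 and 388 CPM in co-culture and at 230, 280 and 289 CPM in the controls. Control 1 was the lowest library, and again the groups did not overlap. The means were 373 ± 15.2 and 267 ± 31.6 CPM, a rise of 1.40-fold or 0.48 on the log2 scale (SE 0.08, edgeR's quasi-likelihood adjusted p = 0.0126). HSPA1B passed in 11 of the 15 alternatives. It did not pass without co-culture 2 (0.49, adjusted p = 0.0821), co-culture 3 (0.46, 0.0506) or control 2 (0.52, 0.0664), nor with the strand class as a term (0.43, 0.242), while co-culture 1, in the class of the controls, was above all 3 of them.

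Summed, HSPA1A and HSPA1B gave 623, 653 and 696 CPM in co-culture and 385, 451 and 459 CPM in the controls. The mean sum was 657 ± 36.5 CPM beside ROS-producing cells and 432 ± 40.9 CPM without, a rise of 0.61 on the log2 scale (SE 0.08, edgeR's quasi-likelihood adjusted p = 0.00313 in a fit with both genes as 1 row). It passed in 14 of 15 alternatives, the exception being the strand-class term (0.53, adjusted p = 0.148). Multimapping reads, which hold those that fit both copies, were not counted, and their share stood apart in co-culture 1 only, so their part in the rise was not tested.

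The split of counted reads between both copies also stood apart between the groups. Only reads from stretches that tell the copies apart enter it, and it was not run with the strand class as a term. HSPA1A took 42.5% (95% exact Clopper-Pearson interval 41.6% to 43.4%), 43.0% and 44.2% of the summed reads in co-culture, and 40.1% (39.0% to 41.2%), 37.9% and 37.1% in the controls. The intervals of the nearest libraries, co-culture 1 and control 1, did not meet, and they cover counting error only. The mean share was 43.2% ± 0.847 against 38.4% ± 1.56 (SD, n = 3), a difference of 4.88 percentage points with an exact two-sided permutation p of 0.1, the smallest that 3 against 3 libraries can give.

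**Figure D2:**
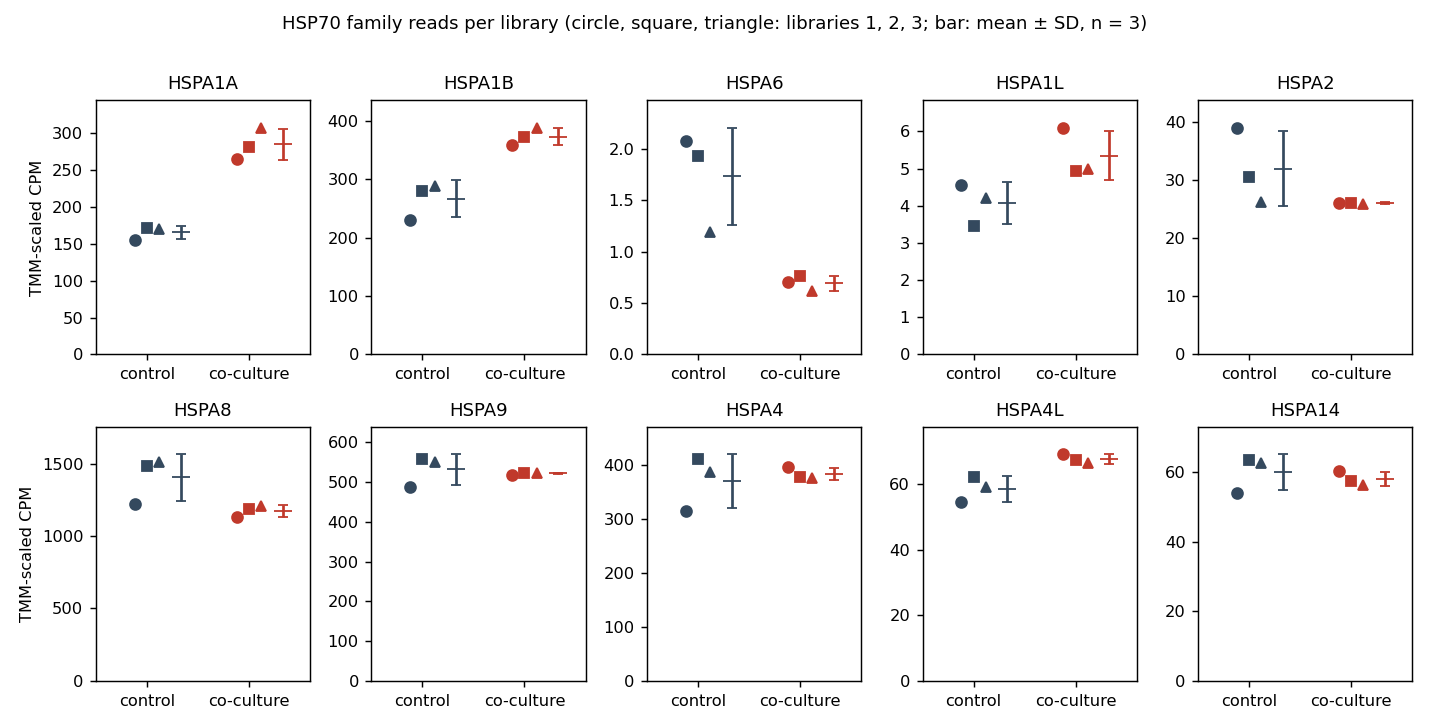
TMM-scaled CPM (y axis, from 0, own scale in each panel) of the 10 HSP70 genes in control and co-culture libraries 1, 2 and 3 (circle, square and triangle), with the mean and SD as bars. HSPA1A and HSPA1B lie higher in all 3 co-culture libraries, HSPA6 lies lower, and HSPA4, HSPA9 and HSPA14 overlap between the groups.

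HSPA6 encodes a strictly inducible HSP70 that is found in humans but not in mice, and it went the other way. Its level was 0.701, 0.760 and 0.615 CPM in co-culture and 2.07, 1.93 and 1.19 CPM in the controls. Each co-culture library was below each control, and control 3 was nearest to them. The means were 0.692 ± 0.0732 and 1.73 ± 0.474 CPM. HSPA6 was thus 2.49-fold lower in co-culture, a log2 fold change of -1.32 (SE 0.30, edgeR's quasi-likelihood adjusted p = 0.0338). The call rests on 14, 16 and 22 reads in co-culture and on 41, 37 and 31 in the controls. It held in 9 of 15 alternatives and was lost, among others, when any co-culture library was left out (-1.39 to -1.22, adjusted p from 0.116 to 0.148), without control 2 (-1.23, 0.151) and with the strand class as a term (-1.28, 0.336), with the sign kept in each.

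HSPA1L is a testis-rich HSP70 whose gene starts beside HSPA1A and runs the other way. It had 6.10, 4.94 and 5.0 CPM in co-culture and 4.55, 3.44 and 4.22 CPM in the controls. Co-culture 1 was the highest, and all co-culture libraries lay above the controls. The log2 fold change of 0.39 (SE 0.17, edgeR's quasi-likelihood adjusted p = 0.201) did not pass, from 66 to 179 reads a library. HSPA2, another testis-rich member that somatic cells also express, had 26.1, 25.99 and 25.8 CPM in co-culture and 39.0, 30.6 and 26.2 CPM in the controls. Control 3 was level with the co-culture libraries and control 1 well above them. Its log2 fold change of -0.29 (SE 0.12, edgeR's quasi-likelihood adjusted p = 0.186) passed only without control 3 (-0.42, adjusted p = 0.0327).

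HSPA8 is the constitutive cytosolic chaperone and had the highest level of the members in counted reads. It had 1129, 1189 and 1207 CPM in co-culture and 1218, 1483 and 1513 CPM in the controls. All co-culture libraries lay below the controls, but control 1 lay next to co-culture 3. The means were 1175 ± 40.5 and 1405 ± 162 CPM, and the log2 fold change was -0.26 (SE 0.09, edgeR's quasi-likelihood adjusted p = 0.106). The difference passed without control 1 (-0.35, adjusted p = 0.000159) and in DESeq2 (-0.26, adjusted p = 0.0324), so the call turns on control 1 and on the tool.

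HSPA9, the mitochondrial HSP70 that pulls proteins through the inner membrane, had 519, 522 and 523 CPM in co-culture and 488, 559 and 550 CPM in the controls. The co-culture libraries lay within the range of the controls. The log2 fold change was -0.03 (SE 0.07, edgeR's quasi-likelihood adjusted p = 0.834). HSPA14, which works at the ribosome with a J-domain partner, had 56.4 to 60.2 CPM in co-culture and 54.1 to 63.4 CPM in the controls, again overlapping. Its log2 fold change was -0.05 (SE 0.07, edgeR's quasi-likelihood adjusted p = 0.731).

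HSPA4 and HSPA4L belong to the HSP110 branch, which acts as nucleotide exchange factors for HSP70. HSPA4 had 396, 377 and 375 CPM in co-culture and 314, 410 and 386 CPM in the controls. Control 1 was below all other libraries and control 2 above them. The log2 fold change of HSPA4 was 0.05 (SE 0.09, edgeR's quasi-likelihood adjusted p = 0.783). HSPA4L had 69.1, 67.2 and 66.2 CPM in co-culture and 54.4, 62.2 and 59.1 CPM in the controls. These groups did not overlap, yet the log2 fold change of 0.20 (SE 0.07, edgeR's quasi-likelihood adjusted p = 0.102) did not pass in this or any of the 15 alternatives.

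The SD among the controls exceeded that among the co-culture libraries in 8 of the 10 genes. Control 1 was the lowest control in 7 members and the highest in 3 (HSPA1L, HSPA2 and HSPA6). Without it 4 members passed, HSPA8 being added, while 3069 of all genes passed in place of 704.

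Summed over the counted reads of the family, the mean levels of both groups lay much closer together than the controls lay to each other. The makeup of the sum stood apart. The 10 genes together had 2829, 2897 and 2954 CPM in co-culture and 2559, 3065 and 3060 CPM in the controls, with means of 2894 ± 62.7 and 2895 ± 291 CPM. Without control 1 the difference was -169 CPM. Of this sum, HSPA1A and HSPA1B made up 22.0%, 22.5% and 23.5% in co-culture against 15.0%, 14.7% and 15.0% in the controls. HSPA8 made up 39.9%, 41.0% and 40.8% against 47.6%, 48.4% and 49.4%. The ratio of the inducible pair to HSPA8 was 0.552, 0.549 and 0.577 in co-culture and 0.316, 0.304 and 0.304 in the controls. In this ratio control 1 lay with the other controls, although its levels of both genes were the lowest among them. Reads shared between HSPA1A and HSPA1B are missing here, so the sum, the shares and the ratio hold for counted reads only. With stretches of 75 bases, 71.2% were shared in HSPA1A and 73.2% in HSPA1B, against 1.76% in HSPA8. The level of the pair beside HSPA8 is thus likely understated. The pair stood higher in co-culture, so with its missing reads counted the group totals might not lie so close. These sums describe the libraries and were not tested.

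**Figure D3:**
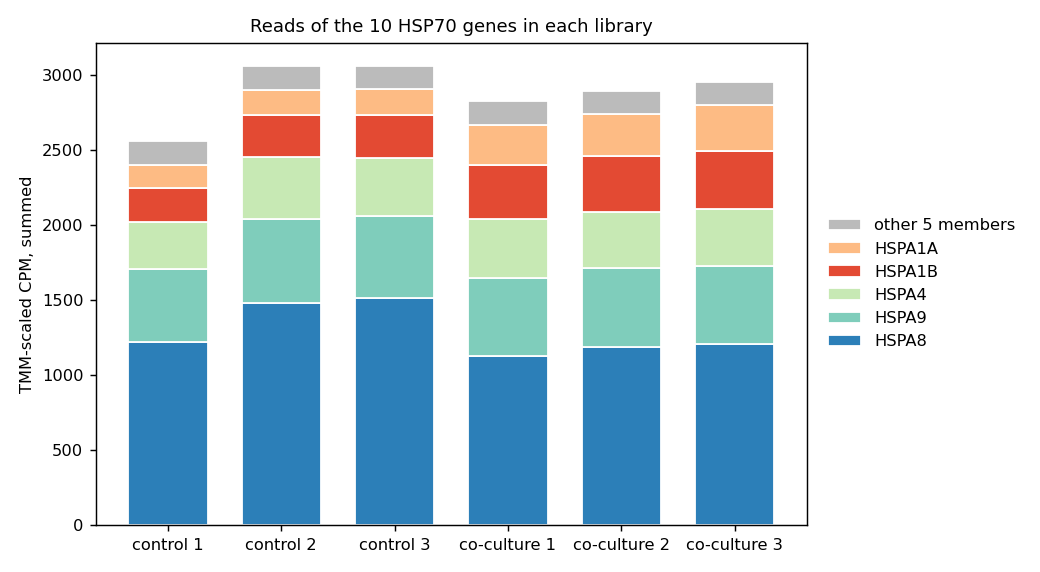
Stacked TMM-scaled CPM (y axis) of the HSP70 genes in each of the 6 libraries, with HSPA8 at the base. The totals run from 2559 to 3065 CPM of counted reads, which leave out those shared between copies. The HSPA1A and HSPA1B blocks are larger in the 3 co-culture libraries.

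Levels of different genes can be compared only per length. In the controls, HSPA8 led with 570 ± 65.8 CPM per kilobase of transcript. HSPA9 (113 ± 8.18) and HSPA1B (106 ± 12.5) followed and did not differ beyond their spread, and neither did HSPA4 (76.7 ± 10.3) and HSPA1A (66.5 ± 3.78). Below them came HSPA14 (31.5 ± 2.72), HSPA2 (11.5 ± 2.35), HSPA4L (5.43 ± 0.364), HSPA1L (1.6 ± 0.223) and HSPA6 (0.730 ± 0.200). In co-culture HSPA8 stood at 477 ± 16.5 CPM per kilobase and HSPA1B at 148 ± 6.01, now above HSPA9 at 110 ± 0.469. HSPA1A stood at 115 ± 8.62 CPM per kilobase, within its spread of HSPA9 and above HSPA4 at 79.3 ± 2.39. HSPA6 ended at 0.292 ± 0.0309, still the lowest. Reads shared between copies are missing from the levels of HSPA1A, HSPA1B and HSPA6, while the full transcript length was the divisor. These levels are thus likely understated, and the place of HSPA1A and HSPA1B beside HSPA9 and HSPA4 holds for counted reads only.

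The HSP70 system also works through partners, which were read from the same fit in 6 lists of 69 genes, 65 of them tested. Of these 65, 1 was called higher and 3 lower, which is near the 4.83% of all tested genes that passed. All 4 were among the 18 tested J-domain genes, so the share in that list was above that of all genes. No gene passed among the 5 tested genes of the wider HSP70 superfamily, the 7 nucleotide exchange factors, the 11 adaptors and ubiquitin ligases, the 11 mitochondrial partners or the 13 heat shock factors and other heat-shock genes. At an unadjusted p under 0.05 in the same edgeR test, 12 of the 65 passed, 7 of them J-domain genes, beside 3377 of all 14582 tested genes, a share no lower than that of the partners. DESeq2 called 5 of the 65 and limma-voom 4, again J-domain genes only. The medians of the 6 lists lay between -0.09 and 0.15 on the log2 scale.

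J-domain proteins bring clients to HSP70 and stimulate its ATPase. DNAJB1, a heat-inducible partner of HSPA1A and HSPA8, had 129.5, 130.5 and 132 CPM in co-culture and 152, 156 and 154 CPM in the controls. It fell by 0.23 on the log2 scale (SE 0.05, edgeR's quasi-likelihood adjusted p = 0.0338). DNAJA1, a farnesylated cytosolic partner, had 263, 246 and 245 CPM against 285, 338 and 341 CPM. DNAJA1 fell by 0.36 (SE 0.08, edgeR's quasi-likelihood adjusted p = 0.0278). DNAJC5, the cysteine string protein of secretory vesicles, had 94.3, 95.6 and 105 CPM against 117, 117 and 122 CPM and fell by 0.27 (SE 0.06, edgeR's quasi-likelihood adjusted p = 0.0313). DNAJC6, an auxilin that uncoats clathrin with HSPA8, had 61.1, 59.1 and 64.1 CPM against 51.0, 50.9 and 52.2 CPM and rose by 0.26 (SE 0.06, edgeR's quasi-likelihood adjusted p = 0.0426). The groups did not overlap in any of these 4, but each lost its call without co-culture 1, co-culture 2 or control 2 and with the strand class as a term. Without a library the log2 fold change ran from -0.43 to -0.31 for DNAJA1, -0.24 to -0.22 for DNAJB1, -0.32 to -0.24 for DNAJC5 and 0.23 to 0.29 for DNAJC6. With the strand-class term edgeR's adjusted p was 0.356, 0.299, 0.233 and 0.344 in that order. Without control 1, 14 of the 65 partner genes passed, a share like that of all genes then (3069 of 14734). Over the 18 tested J-domain genes the median log2 fold change was -0.02, with 9 above 0 and 9 below.

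The most abundant genes of the other 5 lists did not pass. HSP90AA1, the inducible cytosolic HSP90 to which HSP70 hands clients, had a log2 fold change of 0.20 (edgeR's quasi-likelihood adjusted p = 0.257), and HSP90AB1, the constitutive form, 0.12 (0.370). STIP1, which bridges HSP70 and HSP90, stood at 0.00 (0.992), and PTGES3, an HSP90 cochaperone, at 0.13 (0.270). HSPA5, the HSP70 of the endoplasmic reticulum, stood at -0.14 (0.239) and its exchange factor HYOU1 at -0.09 (0.474). HSPD1, the mitochondrial chaperonin that folds proteins after HSPA9, stood at 0.15 (0.286), and TRAP1, the mitochondrial HSP90, at 0.05 (0.686). Among the exchange factors BAG6 stood at -0.10 (0.394) and BAG5 at 0.03 (0.824).

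**Figure D4:**
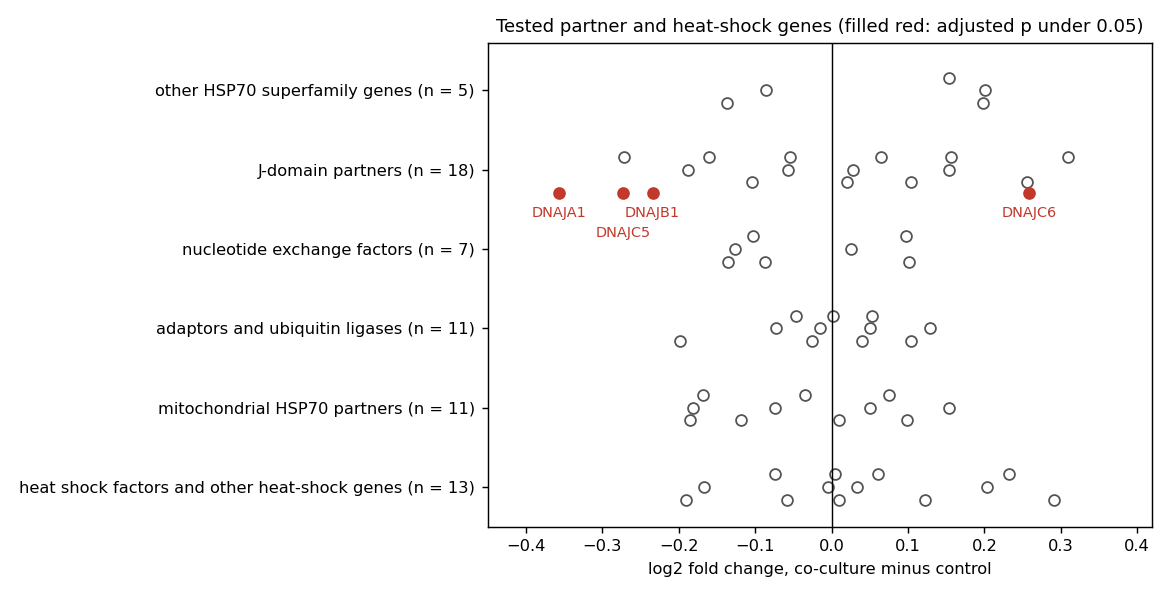
The log2 fold change (co-culture minus control, x axis) of each tested gene in 6 lists of HSP70 partners and heat-shock genes, 1 point per gene. The 4 filled red points passed an adjusted p of 0.05: DNAJA1, DNAJC5 and DNAJB1 on the lower side and DNAJC6 on the higher side, all J-domain genes.

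Across the 6 libraries, the pattern of the summed HSPA1A and HSPA1B was compared with that of 8784 genes at a mean of at least 20 CPM. Pearson's r of log2 CPM was 0.999 for LDLRAD3, 0.998 for LAPTM4B, 0.992 for F2RL1 and 0.991 for VIM (vimentin). It was lowest for SLC1A3 (-0.999), a glutamate transporter, and CYTH3 (-0.998). Pearson's r does not measure the size of a change. In the main fit LDLRAD3 had a log2 fold change of 0.11 (edgeR's quasi-likelihood adjusted p = 0.356) and CYTH3 of -0.16 (0.162), neither called. LAPTM4B (0.27), F2RL1 (0.43), VIM (0.40) and SLC1A3 (-0.33) were called. Among the other HSP70 genes r was 0.916 for HSPA4L, 0.630 for HSPA1L, 0.431 for HSPA4, 0.053 for HSPA9, -0.081 for HSPA14, -0.558 for HSPA8, -0.803 for HSPA2 and -0.956 for HSPA6. These correlations describe 6 libraries in 2 separate groups, share depth and scaling, and carry no test.

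**Figure D5:**
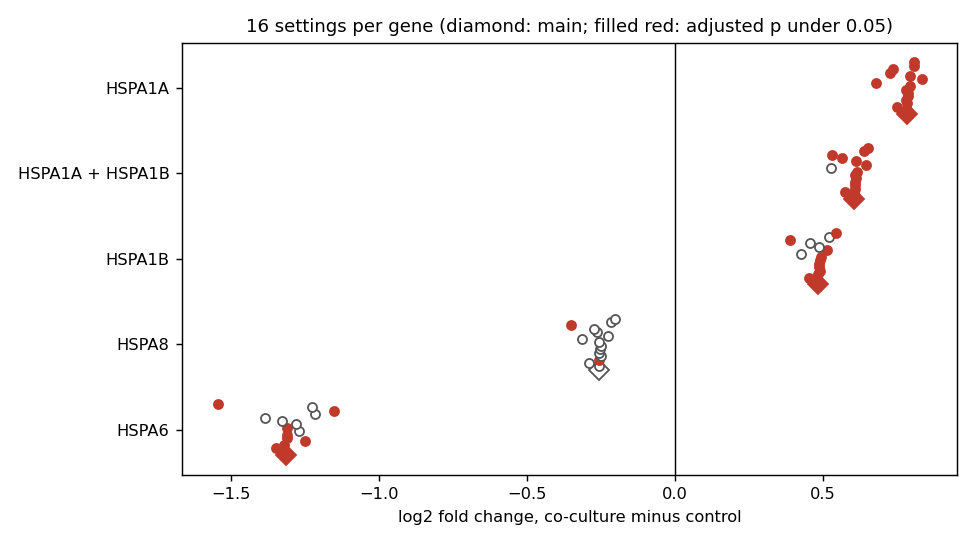
The log2 fold change (x axis) of 4 HSP70 genes and the HSPA1A and HSPA1B sum under the main setting (diamond) and 15 alternatives (circles), filled red where the adjusted p was under 0.05. HSPA1A is filled in all of them, from 0.68 to 0.84, while HSPA6 runs from -1.55 to -1.15 and is filled in 9 of the 15 alternatives.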

How the data were processed

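RNA of 6 HEK293 samples was extracted with TriPure and made into libraries with Illumina's stranded kit, as the labels' protocols say. The deposited tables hold raw read counts per gene for each sample, and STAR 2.53a, FastQC and hg18 are named in the submitters' processing notes; the annotation release is not given in the sources used here. Reverse-strand counts were used, and the 4 summary lines were left out. Groups follow the sample titles. Counts were filtered with filterByExpr (minimum count 10), scaled with TMM and tested with edgeR 4.0.16 (R 4.3.3) by a robust quasi-likelihood F test with group as the only term and Benjamini-Hochberg adjustment over 14582 genes. The standard error of each log2 fold change was taken as its size over the root of its F statistic. A gene with 0 reads may hold up to 3 reads, or 0.0828 to 0.157 CPM before TMM scaling, and such limits cover counting error only. Libraries of a group differed beyond sampling noise (chi-square per degree of freedom 4.73 to 18.5), so none was counted as the same library read again. This cannot show whether they came from separate cultures.

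The members and gene lists were chosen with earlier results of these data known. Beyond all 10 members, the text names the list genes past the threshold (at most 4 a list), the 2 most abundant genes of a list with none, and the 4 most and 2 least correlated genes. Alternatives were RLE and total-count scaling, DESeq2 1.42.0, limma 3.58.1 (voom), no filter and a filter at 1 CPM, unstranded counts, a replicate term, a strand-class term and leaving out each library. Sequences came from RefSeq (GRCh38.p14) and GENCODE 29, which are of another build than hg18, so no coordinate of the deposited files is used. Alignments were made with Biopython 1.88, and transcript lengths are those of the longest GENCODE 29 transcript paired with a RefSeq mRNA. Protein sequences were not analysed here.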

Additional observations from a re-analysis of the deposited data

How the results depend on the processing

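Of the calls, HSPA1A was the only member to pass in all 15 alternatives. The number of genes past the threshold moved from 704 to 29 with the strand class as a term and to between 65 (without control 2) and 3069 (without control 1) when a library was left out. Members called moved from 3 to 1 with the strand class and ran from 1 to 4 without a library; a left-out library leaves 2 in its arm. The fit with the strand class sets co-culture 1 alone against the controls, and there the sum of HSPA1A and HSPA1B stood at 0.53. Same-numbered libraries did not deviate together from their group means (correlations -0.07, -0.19 and -0.18). Such deviations also carry unshared differences, as in strand class, so they cannot show whether the numbers pair the libraries. With the replicate block 164 genes and 2 members passed, HSPA6 standing at -1.27 (adjusted p = 0.0753), and the sum at 0.61 (0.0117), and DNAJA1, DNAJB1, DNAJC5 and DNAJC6 lost their calls (edgeR adjusted p from 0.0811 to 0.117). Total-count scaling called 882 genes, 310 higher and 572 lower, against 388 and 316, and moved the median of all genes to -0.04. DESeq2 called 1032 genes and 4 members. Among the genes named in the text, signs turned in uncalled ones only. They were HSPA14 (0.0042) and TRAP1 (-0.040) with the strand class, BAG5 (-0.0077) and STIP1 (-0.031) with total counts, STIP1 with unstranded counts (-0.00017) and, without a library, HSPA4 (-0.056 to 0.13), HSPA9 (-0.088 to 0.0077) and STIP1 (-0.065 to 0.046). The causes were not tested. The difference in HSPA1A share ran from 4.26 to 5.76 percentage points without a library, and that of the summed 10 members from -169 to 84.2 CPM. Depth limits HSPA6, with 14 to 41 reads a library.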
